A study of Mus musculus with 8 samples.

Results

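The genes described here are the mouse MHC class II genes and their regulators, 10 of the 24516 genes in the count table: H2-Aa, H2-Ab1, H2-Eb1, Cd74, H2-DMa, H2-DMb1, H2-DMb2, Ciita, Cd86 and Rfx5. They were chosen by name, and all 10 were found in the table. The study sequenced RNA of cardiac tissue macrophages. It has 8 libraries: 4 EcTM libraries, from endocardially derived cells, named E591, E592, E604 and E606, and 4 non-EcTM libraries, from cardiac macrophages of other origin, named N591, N592, N604 and N606. The cells came from C57BL/6 hearts at postnatal day 28 and were isolated by FACS. Both groups carried the same alleles, Nfatc1Cre/+ and Rosa26Tomato reporter/+, so Cre was driven by the Nfatc1 locus, which is active in endocardium, and the reporter marks cells in which Cre has acted and their descendants. An EcTM and a non-EcTM library that share a number form a pair. The sources used here do not give the sorting gate, nor whether a number stands for an animal, a litter or a pool, and the p-values measure the spread between these libraries.

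MHC class II molecules are dimers of an alpha and a beta chain that carry peptides from endosomes to the cell surface, where CD4 T cells read them. The invariant chain, encoded by Cd74, holds new dimers and guides them to the endosome, and the H2-DM dimer helps to exchange its remnant for peptide. Ciita is the coactivator that class II promoters need, and it is recruited by factors bound to short promoter elements called the X and Y boxes, among them the RFX complex, of which Rfx5 is a subunit, and NF-Y. Tissue macrophages, those of the heart included, differ from cell to cell in how much class II they carry.

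Promoter sequence from RefSeq (GRCm38.p6, 250 bases before to 50 after a listed start) was matched for 6 of the 10 genes, with 7 promoters. The listed starts of H2-DMb2, H2-DMa and Rfx5 lie inside the gene's annotated span, downstream of its first base, so the H2-DMb2 window belongs to an internal start. Windows of the class II chain genes that hold the letters TGATTGG, an inverted Y box core, are shown because these genes moved together over the libraries. H2-DMa moved with them too, but TGATTGG was not found for it. Rfx5, for which it was found, correlated negatively with them. The part of these letters in the levels was not tested. Capitals mark GNAAC where it lies within 40 bases before TGATTGG, and TGATTGG itself. The windows lie at chr17:34287855-34287916 (minus strand) for H2-Aa, and on the plus strand at chr17:34305764-34305824 for H2-Eb1, chr17:34153085-34153146 for H2-DMb1 and chr17:34145114-34145175 for H2-DMb2.
H2-Aa: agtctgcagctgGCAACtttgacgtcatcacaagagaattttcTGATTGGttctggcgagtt
H2-Eb1: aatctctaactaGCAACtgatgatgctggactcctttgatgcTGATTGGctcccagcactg
H2-DMb1: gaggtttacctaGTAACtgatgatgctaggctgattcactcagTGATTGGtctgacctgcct
H2-DMb2: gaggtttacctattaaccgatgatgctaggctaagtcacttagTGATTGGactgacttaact

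In H2-Aa, H2-Eb1 and H2-DMb1 the 2 marked runs were 26, 25 and 26 bases apart. Searched on both strands, GNAAC followed within 40 bases by TGATTGG was in 4 of 7 member promoters, the other being that of Rfx5, and in 1.05% of all 32851 promoters. TGATTGG alone was in 5 of 7 and in 7.82% of all, and CCAAT, whose reverse complement overlaps TGATTGG, in 6 of 7 and in 37.4%. The letters AGNNACAG, also searched for the X box, were in 1 of 7, that of H2-Eb1, and in 25.9% of all. In H2-Eb1 they lie outside the window shown. GNAAC and TGATTGG were chosen after these promoters had been seen, so the counts are a description of the windows only.

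Gene counts summed to between 2152425 and 2937464 per library, and levels are given as CPM, the count as a share of the library's total after TMM scaling. The macrophage label was checked on 12 markers, whose summed level was 30839 to 31437 CPM in EcTM, against 28685 to 31111 CPM for non-EcTM. Of 14 dendritic cell markers, 5 were at 0 in all libraries, Clec9a, Irf4, Ccr7, Klrd1 and Clec10a, and the list summed to 71.9 to 105.8 CPM in EcTM, against 59.9 to 90.5 CPM for non-EcTM. The 8 B cell markers found summed to at most 6.71 CPM in EcTM, against 3.49 CPM for non-EcTM, with Cd79b, Ebf1 and Fcrla at 0 throughout. The 5 T and NK cell markers found summed to at most 4.82 CPM in EcTM, against 1.31 CPM for non-EcTM. Genes with several transcripts are counted low in this table: ribosomal protein genes had a median total count of 410 with 1 curated transcript (62 genes) and of 19 with 2 or more (22 genes). H2-Aa, H2-Ab1, H2-Eb1, H2-DMb1 and Cd86 have 1 curated transcript, whereas Cd74 and H2-DMa have 2, H2-DMb2 has 3, Rfx5 has 4 and Ciita has 5, so levels of these last 5 genes are lower bounds of unknown tightness.

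The classical chain genes were abundant, and each was higher in EcTM in 4 of 4 pairs by a small amount. H2-Ab1, the beta chain of the A molecule (chr17:34263227-34269418), had 2116, 1821, 542.5 and 943.3 CPM in E591, E592, E604 and E606, against 1801, 1508, 451.9 and 760.8 CPM in N591, N592, N604 and N606. H2-Aa, its alpha chain (chr17:34282744-34287823), had 1422, 1395, 384.2 and 702.1 CPM in the EcTM libraries, against 1171, 924.1, 349.4 and 509.3 CPM in the non-EcTM libraries in the same order of pairs. H2-Eb1, the beta chain of the E molecule (chr17:34305867-34316674), had 918.0, 829.7, 261.0 and 374.7 CPM in EcTM, against 668.0, 617.6, 214.6 and 318.5 CPM in non-EcTM. For all 3 genes the pairs E591/N591 and E592/N592 were high and E604/N604 lowest, so the groups overlapped widely while every EcTM library lay above its own partner.

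In the paired fit of edgeR, the log2 fold change of EcTM over non-EcTM was 0.37 ± 0.08 (SE) for H2-Aa, 0.27 ± 0.06 for H2-Ab1 and 0.35 ± 0.08 for H2-Eb1, with adjusted p-values of 0.144, 0.277 and 0.277. None passed the threshold of 0.05. The ratios within pairs were closest for H2-Ab1, at 0.23, 0.27, 0.26 and 0.31 on the log2 scale in the pairs of E591, E592, E604 and E606, and widest for H2-Aa, at 0.28, 0.59, 0.14 and 0.46. In bulk RNA a smaller share of cells with class II and less class II RNA per cell cannot be told apart.

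Cd74 (chromosome 18) had 496.4, 368.6, 140.8 and 210.1 CPM in E591, E592, E604 and E606, against 439.6, 282.2, 111.2 and 195.7 CPM in the non-EcTM partners. In 4 of 4 pairs the EcTM library was above its partner, and edgeR gave a log2 fold change of 0.25 ± 0.10 (adjusted p 0.897). H2-DMa, the alpha chain of the H2-DM peptide exchanger (chr17:34119693-34139101), had 202.9, 173.4, 111.0 and 144.1 CPM in EcTM, against 142.2, 124.5, 81.1 and 102.0 CPM in non-EcTM. Its pair ratios were nearly alike, at 0.51, 0.48, 0.45 and 0.50 on the log2 scale, and edgeR estimated the log2 difference at 0.49 ± 0.14 (adjusted p 0.524).

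The beta chains of H2-DM did not keep 1 direction over the pairs. H2-DMb1 (chr17:34153191-34160229) had 31.0, 58.1, 21.9 and 31.2 CPM in E591, E592, E604 and E606, against 47.3, 41.5, 18.3 and 30.0 CPM in N591, N592, N604 and N606. H2-DMb2 (chr17:34143229-34151553) had 8.10, 8.04, 0 and 5.53 CPM in EcTM, against 9.53, 3.13, 0 and 5.61 CPM in non-EcTM. Their log2 fold changes were 0.05 ± 0.28 and 0.33 ± 0.97, with adjusted p-values of 0.998 and 0.994 in edgeR. With SEs this wide, these values do not set the beta chains apart from H2-DMa at 0.49 ± 0.14. The 2 transcripts share 369 runs of 50 bases, 27.23% of those in H2-DMb1 and 26.84% of those in H2-DMb2, so how reads were split between them is uncertain.

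Cd86, a costimulatory ligand for CD28 on T cells (chr16:36568956-36666158), had 280.1, 320.8, 270.6 and 236.5 CPM in E591, E592, E604 and E606, against 231.5, 295.5, 236.8 and 220.2 CPM in the non-EcTM partners. All 4 EcTM libraries lay above their partners, with a log2 fold change of 0.17 ± 0.10 (edgeR, adjusted p 0.941). Rfx5 (chr3:94950689-94961561) ran the other way, with 27.2, 24.6, 40.4 and 39.9 CPM in EcTM, against 31.4, 47.4, 47.1 and 41.9 CPM in non-EcTM. It was lower in EcTM in 4 of 4 pairs, with a log2 fold change of -0.36 ± 0.27 and an adjusted p of 0.964. Ciita (chr16:10480014-10531064) had 8 reads in E606 and 0 in the other 3 EcTM libraries, against 3 in N604, 4 in N606 and 0 in N591 and N592. A count of 0 allows up to 0.990 to 1.43 CPM, depending on the library and for counting error only, and Ciita was too low to be tested.

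**Figure D1:**
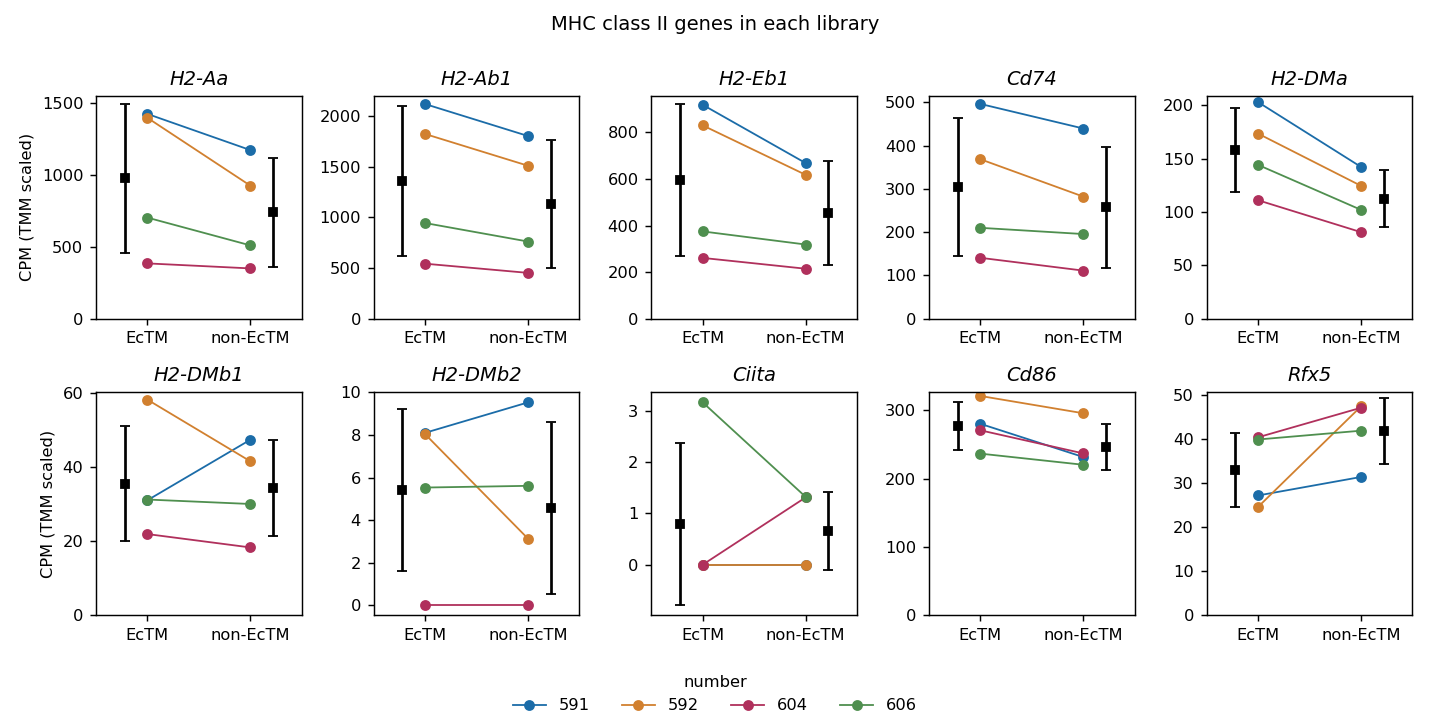
CPM (linear axis, TMM scaled) of the 10 genes in each library, EcTM left and non-EcTM right, with a line joining the libraries of 1 number and squares with bars for the mean ± SD of 4 libraries. H2-Aa, H2-Ab1, H2-Eb1, Cd74, H2-DMa and Cd86 slope down from EcTM to non-EcTM in 4 of 4 pairs. The spread between numbers is wider than that step for each of them, most of all for the first 4.

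Of the 9 genes tested, 0 passed in the paired edgeR fit, where 1 of all 7667 tested genes (0.0130%) did. At an unadjusted p under 0.05, 5 of 9 were higher in EcTM, namely H2-Aa, H2-Ab1, H2-Eb1, Cd74 and H2-DMa, beside 2.77% of all tested genes. Paired DESeq2 called H2-Aa, H2-Ab1 and H2-Eb1, all higher in EcTM (adjusted p 0.00192, 0.00192 and 0.00356), where it called 0.383% of 4433 genes, 0.338% higher in EcTM. Paired limma-voom called the same 3 (adjusted p 3.03e-04, 0.00752 and 0.0113), beside 0.248% of 7667 genes called, 0.196% higher. In 3 further DESeq2 runs with other filter settings, chosen after seeing the data, these 3 passed again, and H2-DMa passed in 2 of them (adjusted p 0.0463 and 0.0397). DESeq2 called 3 members beside 0.393% of genes (0.347% higher) with rows at 0 left out, 4 beside 0.775% (0.613% higher) with its filter optimised at 0.05, and 4 beside 0.977% (0.789% higher) with both. Without the pairing, edgeR and DESeq2 each called 0 of the 9. Over all alternatives tried the adjusted p ran from 3.03e-04 for H2-Aa, 0.00115 for H2-Ab1 and 0.00284 for H2-Eb1 up to 1 for each, so the group difference of the chain genes depends on the test.

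By direction alone, 6 of 9 genes were higher in EcTM in 4 of 4 pairs, beside 7.24% of all tested genes, and Rfx5 was lower in 4 of 4, beside 6.89%. The median log2 fold change of the 9 was 0.27, beside -0.01 over all tested genes. For no member did the groups fail to overlap, beside 2.70% of all tested genes whose groups did not. Among the marker lists, the 6 resident macrophage markers summed to 2953, 3081, 3278 and 2520 CPM in E591, E592, E604 and E606, against 3371, 3767, 3305 and 2765 CPM in their partners. This sum, with Folr2 at 0 throughout, was lower in EcTM in 4 of 4 pairs, and most of it was Lyve1. Cbr2 and Fcna were also lower in 4 of 4 pairs. In E604, however, Lyve1 (2273 against 2217 CPM in N604), Timd4 (149.6 against 142.6) and Cd163 (37.7 against 24.9) were higher. Cd163 was also higher in E606 than in N606. Ccr2, a chemokine receptor of monocytes and monocyte-derived macrophages, had 48.6, 53.2, 54.4 and 21.3 CPM in EcTM, against 94.9, 50.1, 71.1 and 42.2 CPM in the partners, with a log2 fold change of -0.56 ± 0.24 (edgeR, adjusted p 0.897). None of the 5 resident markers tested passed in paired edgeR either, and the part of these markers in the class II values was not tested.

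**Figure D2:**
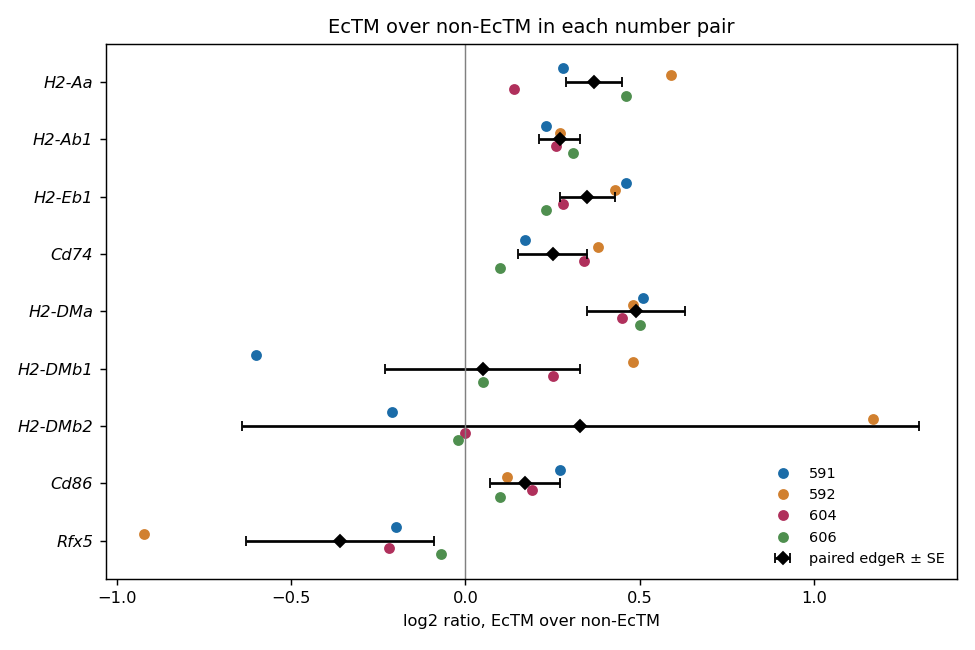
Log2 ratio of EcTM over non-EcTM for the 9 tested genes, 1 dot per number pair, with a diamond and bar for the paired edgeR estimate ± SE. All 4 dots lie right of 0 for H2-Aa, H2-Ab1, H2-Eb1, Cd74, H2-DMa and Cd86 and left of 0 for Rfx5.

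H2-Aa, H2-Ab1, H2-Eb1 and Cd74 differed between the numbers by more than between the groups. H2-Aa, H2-Ab1, H2-Eb1, Cd74 and H2-DMa had 1 order in both groups, E591 > E592 > E606 > E604 and N591 > N592 > N606 > N604. The highest over the lowest library of a group was 3.70 in EcTM and 3.35 in non-EcTM for H2-Aa, 3.90 and 3.98 for H2-Ab1, 3.52 and 3.11 for H2-Eb1, and 3.53 and 3.95 for Cd74. For H2-DMa it was only 1.83 in EcTM and 1.75 in non-EcTM, and for Cd86 1.36 and 1.34. These spans too were above the folds between the groups in paired edgeR, 1.40 for H2-DMa and 1.13 for Cd86.

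In the test of differences between numbers in the same edgeR fit, 4 of 9 genes passed, where 3.04% of all tested genes did. H2-Ab1 had an F of 188.8 and an adjusted p of 3.55e-13, and ranked 2 of 7667 genes by F. H2-Aa (F 104.9, adjusted p 1.34e-10), H2-Eb1 (F 92.3, adjusted p 4.34e-10) and Cd74 (F 59.4, adjusted p 2.63e-08) ranked 4, 5 and 9. H2-DMa missed the threshold with an adjusted p of 0.0594, and H2-DMb1, H2-DMb2, Cd86 and Rfx5 had 0.327, 0.232, 0.442 and 0.866. The same 4 genes passed with each number left out in turn, where 146 to 179 genes passed in all.

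E604 and N604 were below the other 6 libraries for 6 of 9 genes, H2-Aa, H2-Ab1, H2-Eb1, Cd74, H2-DMb1 and H2-DMb2, beside 4.02% of all tested genes. This pair was already the lowest for the chain genes, and the genes move together, so the count is a description only. Sex differed between pairs: Y-linked Ddx3y had 260 counts in E592 and 307 in N592, and at most 7 elsewhere, and the part of sex in the class II values was not tested. Summed endothelial markers (8 genes, with Pecam1, Tek and Emcn at 0 throughout) were 330.1, 50.5, 32.5 and 233.4 CPM in E591, E592, E604 and E606, against 890.0, 87.3, 147.0 and 115.9 CPM in the non-EcTM partners. They were highest in E591 and N591, as class II was, but lowest in E604 among EcTM and in N592 among non-EcTM, and their part in the class II order was not tested. The dendritic cell sum was 97.7, 71.9, 75.0 and 105.8 CPM in EcTM, against 90.5, 59.9, 71.5 and 67.0 CPM in non-EcTM. It did not follow the order of class II over the numbers, but in 4 of 4 pairs the EcTM library had the higher sum, as for the chain genes. Single markers of the list did not share 1 direction. Flt3, a receptor of dendritic cells and their precursors, was higher in 4 of 4, at 8.49 to 18 CPM in EcTM, against 3.96 to 9.60 CPM in the partners. Zbtb46 was lower in 4 of 4, at 0.395 to 4.39 CPM in EcTM, against 2.97 to 5.96 CPM in the partners. Itgax, Batf3 and Fscn1 went both ways over the pairs. None of the 5 dendritic cell markers tested passed in paired edgeR, and the part of such cells in the class II values was not tested.

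**Figure D3:**
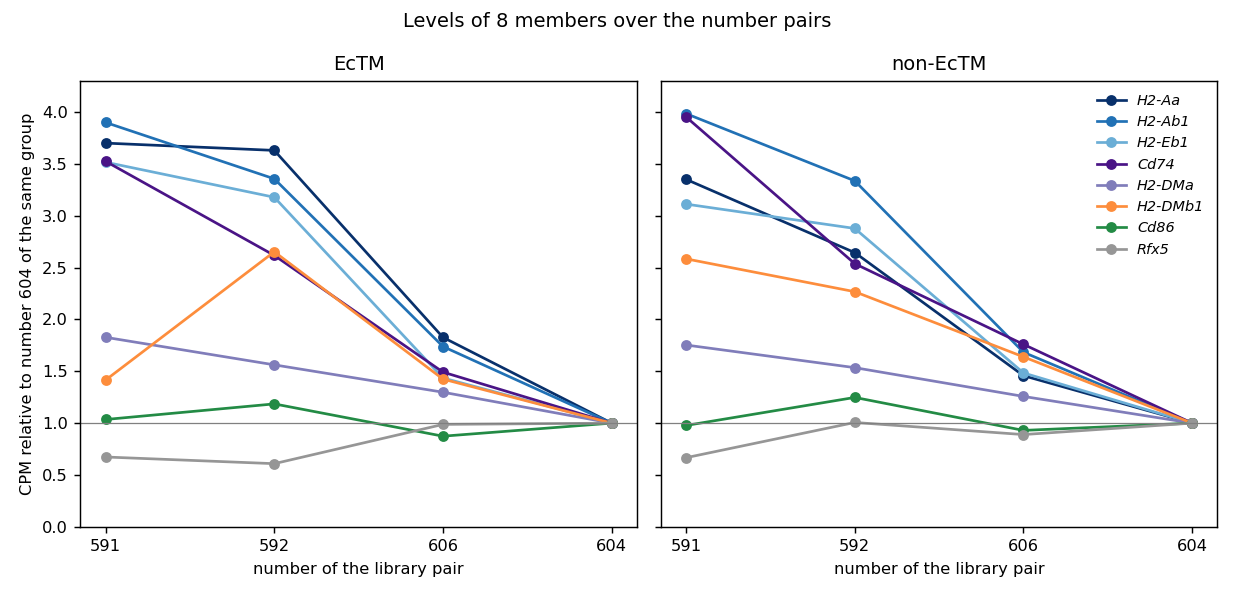
CPM of 8 of the genes relative to E604 or N604 of the same group (linear axis), over the numbers in the class II order, EcTM left and non-EcTM right. H2-Aa, H2-Ab1, H2-Eb1 and Cd74 reach 3.11 to 3.98 in E591 and N591, while Cd86 stays between 0.87 and 1.25 and Rfx5 between 0.61 and 1.01.

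Over the 8 libraries, which are 4 pairs, log2 CPM of H2-Aa, H2-Ab1, H2-Eb1 and Cd74 had Pearson correlations of 0.97 to 0.99 and Spearman correlations of at least 0.98 with each other. H2-DMa correlated with these 4 at 0.87 to 0.90, and at 0.97 to 0.99 once the group means were removed. H2-DMb1 reached 0.79 to 0.85, H2-DMb2 0.80 to 0.86 and Cd86 0.38 to 0.58, and Rfx5 had -0.78 to -0.72. Rfx5 had counts of 55 to 127 per library, and N592, where it was highest at 47.4 CPM, was among the libraries high in class II.

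Levels between genes can be compared per length among those with 1 curated transcript. H2-Ab1 had 1119 CPM per kb in EcTM and 933 in non-EcTM, H2-Aa 865 and 655, H2-Eb1 357 and 272, Cd86 109.1 and 96.9, and H2-DMb1 25.3 and 24.4. The order was therefore H2-Ab1, H2-Aa, H2-Eb1, Cd86 and H2-DMb1 in both groups. The ratio of H2-Aa to H2-Ab1 counts, the chains of 1 dimer, was 0.67, 0.77, 0.71 and 0.74 in the EcTM libraries, against 0.65, 0.61, 0.77 and 0.67 in the non-EcTM libraries. The mean log2 difference was 0.10 ± 0.19 (SD, n = 4 pairs), with a two-sided exact sign-flip p of 0.375, where 0.125 is the smallest that 4 pairs allow. For H2-Eb1 to H2-Ab1 it was 0.08 ± 0.14 (exact p = 0.375) and for Cd74 to H2-Ab1 -0.02 ± 0.15 (exact p = 0.875). H2-DMb1 made up 79.3% to 100% of the H2-DMb1 and H2-DMb2 counts in EcTM and 83.2% to 100% in non-EcTM (exact p = 0.5). Both E604 and N604 were at 100%, so that pair had no difference and this last test could not reach 0.125. H2-DMb2 has 3 curated transcripts and Cd74 has 2, so the level of a share or ratio that holds either is uncertain.

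Of 3799 other genes, with mean log2 CPM from 5 upwards, those most like the mean of H2-Aa, H2-Ab1, H2-Eb1 and Cd74 over the 8 libraries were Wdr1 (Pearson r 0.978), Arhgef12 (0.975), Cyr61 (0.975), Lasp1 (0.962), Pmaip1 (0.951), Ccnd2 (0.951), Pura (0.950), Furin (0.947), Zfp36l1 (0.943) and Tpbgl (0.943). In all, 23 genes reached 0.9 and 28 reached -0.9. These 10 varied far less than class II, with the highest over the lowest library at 1.16 for Lasp1 to 2.28 for Furin, against 4.07 to 4.68 for the 4 class II genes. The list was not stable: 0 of the 10 were again among the first 10 without E604 and N604, 1 without E591 and N591, and 5 each without E592 and N592 or E606 and N606.

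The other genes of the pathway were taken from 7 lists with 50 genes, of which 33 could be tested. Between EcTM and non-EcTM 0 of 33 passed in paired edgeR, with 20 above 0, 13 below and a median log2 fold change of 0.04, where 48.5% of all tested genes were above 0. At an unadjusted p under 0.05 there were 2 of 33, Lgmn and Cd9, a share near the 5.40% of all tested genes. Paired DESeq2 and limma-voom called 0 of them too, except 1 DESeq2 run with other filter settings that called Lgmn. Between numbers 1 of 33 passed, Cst3, an inhibitor of cathepsins (edgeR, adjusted p 0.0386), a share near the 3.04% of all tested genes.

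Among the 11 enhanceosome and coactivator genes 6 were tested, 4 above 0 and 2 below. Nfyb, a subunit of NF-Y, averaged 60.2 ± 16.0 CPM in EcTM, against 44.7 ± 15.9 CPM in non-EcTM (SD, n = 4 each), at a log2 fold change of 0.45 ± 0.23. The acetyltransferases Crebbp and Ep300 each had 0.13, with SEs of 0.07 and 0.08, and Atf1 had 0.37 ± 0.25. Rfxank, Nfya and Nfyc were listed at 0 in all libraries, as was Ctss, the cathepsin that trims the invariant chain, in a table that lists some genes with several transcripts at 0.

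Of the 9 endosomal processing genes 8 were tested, with a median of -0.04 on the log2 scale. Lgmn, an asparaginyl endopeptidase, averaged 2057 ± 91.6 CPM in EcTM, against 1835 ± 108.5 CPM for non-EcTM, higher in 4 of 4 pairs, with a log2 fold change of 0.17 ± 0.06. Ctsz had 0.12 ± 0.08, Ifi30, a thiol reductase, -0.10 ± 0.10 and Ctsl -0.09 ± 0.10. Of the list of other chain genes 2 of 4 were tested, with 0.83 ± 0.80 for H2-Eb2 and -1 ± 0.68 for H2-Ea-ps, both at means of 10.7 CPM or less. H2-Ea-ps is named as a pseudogene, and whether these cells make the E molecule was not tested. H2-Oa and H2-Ob, which form an inhibitor of H2-DM, were too low to be tested, at up to 12.9 CPM.

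In the surface turnover list 4 of 7 genes were tested, and all 4 were above 0. Cd9, a tetraspanin, averaged 53.2 ± 23.4 CPM in EcTM, against 28.9 ± 6.25 CPM in non-EcTM, higher in 3 of 4 pairs, with a log2 fold change of 0.78 ± 0.28. Marchf1, the ubiquitin ligase that removes class II from the surface, had 0.35 ± 0.58, Cd81 0.10 ± 0.08 and Cd63 0.14 ± 0.34. In the interferon gamma list 6 of 9 were tested with a median of -0.00, among them Jak1 at 0.14 ± 0.07, Ifngr2 at 0.11 ± 0.11, Irf8 at -0.57 ± 0.62 and Spi1 at -0.04 ± 0.09.

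For costimulation and T cell contact 4 of 7 were tested, with Icam1 at 0.07 ± 0.07, Cd80, the other CD28 ligand, at -0.39 ± 0.37, Icosl at 0.04 ± 0.14 and Cd274 at 0.02 ± 0.70. The receptor partners of the invariant chain gave 0.41 ± 0.89 for its ligand Mif, 0.60 ± 0.97 for Cd44 and -0.01 ± 0.11 for Cxcr4. Only Cxcr4 of these 3 was well counted, at 251.7 ± 9.23 CPM in EcTM, with 254.9 ± 21.3 CPM in non-EcTM.

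**Figure D4:**
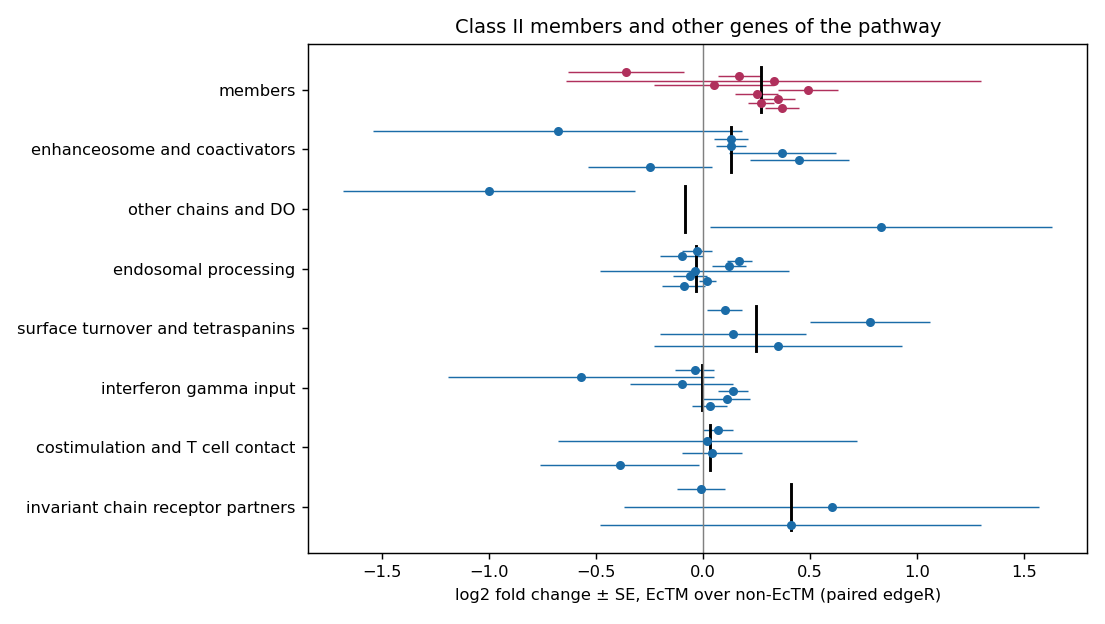
Log2 fold change ± SE of EcTM over non-EcTM in paired edgeR for the 9 tested class II genes and the 33 tested genes of 7 pathway lists, with a black bar at each list's median. The class II genes have a median of 0.27, and the lists range from -0.08 to 0.41, the highest being a list of 3 genes.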

How the data were processed

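Total RNA of sorted cells was made into stranded libraries, per the labels' protocols. The submitters' processing notes name bcl2fastq 2.17, TopHat, DESeq2, R 3.2 and the build mm10. Which program counted reads, with what annotation and strandedness, the sources used here do not say. The authors deposited raw counts and log2 values for 24516 genes in 8 libraries. Columns headed as CPM hold log2 values and served in 1 alternative. From the counts, the main test was edgeR 4.0.16 (R 4.3.3), quasi-likelihood F-test with number and group as terms, TMM and filterByExpr, which kept 7667 genes with 99.3% of counts. P-values were adjusted by Benjamini-Hochberg over all of these, with a threshold of 0.05. Log2 CPM used a prior count of 2. DESeq2 1.42.0, limma 3.58.1, other scalings and filters, unpaired fits and left-out libraries were alternatives. Fits were tested on simulated data.

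The paired fit was made the main one with earlier results of these data known, in which pairing changed calls. The numbers were checked: same-numbered libraries correlated at 0.122 to 0.186 after group means were removed, over the minimum of 0.1, and others at -0.127 to 0.0532. Members and lists were likewise chosen with earlier results known. Named genes were all members, up to 4 tested genes per pathway list with the smallest unadjusted p, and the 10 most alike over libraries. Ighm and Trac were not analysed here. Coordinates are from the RefSeq annotation of GRCm38.p6.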

Additional observations from a re-analysis of the deposited data

Results flagged for a closer look

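Ciita in EcTM had 1 library far from the others, E606 at 3.16 CPM (8 reads) with the other 3 at 0. It was 1 of 26 groups of values checked in this way, of which chance flags about 1 in 20. With the other 3 at 0, any reads in E606 would have been flagged, so that rate does not apply to Ciita.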

How the results depend on the processing

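Of 229 alternative fold changes of members, 198 kept their direction and their side of the threshold. The count of members called between EcTM and non-EcTM, 0 in paired edgeR, was 1 without a filter on low counts (H2-Aa), 3 in paired DESeq2 and 3 in paired limma-voom. Paired DESeq2 was run under 4 filter settings, 3 of them chosen after seeing the data: it called 3 members with the default filter, 3 with rows at 0 left out, 4 with the filter optimised at 0.05, and 4 with both changes. The fourth was H2-DMa, with adjusted p-values of 0.0463 and 0.0397 in those last runs, so its call turns on that choice; the last run also called 1 pathway gene, Lgmn. Genes called in all numbered 1 in paired edgeR, 17 to 26 over these DESeq2 runs, 19 in limma-voom and 10 without a filter. No replicate block gave 0 member calls in edgeR and DESeq2, with a log2 fold change of 0.40 for H2-Aa. Between numbers, 4 to 6 members passed, and 3 where genes with several transcripts, Cd74 among them, were left out. Genes called in all between numbers were 233 in paired edgeR and 210 with genes of several transcripts left out. They were 435 to 442 in the paired DESeq2 runs, which called 6 members, so more member calls went with more calls over all genes.

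With both libraries of 1 number left out, the log2 fold change kept its sign in every run for H2-Ab1 (0.25 to 0.28) and Cd74 (0.20 to 0.29). It did not for H2-DMb1 (-0.11 to 0.27), H2-DMb2 (-0.12 to 0.63), Cd81 (-0.00 to 0.16), Cd63 (-0.01 to 0.23), Spi1 (-0.12 to 0.03), Icosl (-0.03 to 0.08), Cd274 (-0.46 to 0.62), Cd44 (-0.02 to 1.10), Cxcr4 (-0.07 to 0.01) and the Cd74 to H2-Ab1 ratio (-0.06 to 0.04). Unpaired fits without 1 library, which leave a number in 1 group alone, turned H2-Ab1 (-0.03 without E591, -0.00 without N604), Cd74 (-0.10 and -0.01 without the same), H2-DMb1 (-0.29 without E592, -0.15 without N604, -0.01 without N606), H2-DMb2 (-0.01 without E591, -0.01 without E592, -0.17 without N604), Marchf1 (-0.02, -0.00, -0.04 and -0.09 without E591, E604, N592 and N606), Cd63 (-0.04 without E606), Spi1 (0.03 without E591), Icam1 (-0.00 without N591), Icosl (-0.03 without E604, -0.04 without N591), Cd274 (-0.13 without E591), Cd44 (-0.07 without E592, -0.02 without N591) and Cxcr4 (0.03 without N592). The cause was not tested. Low counts limit Ciita and H2-DMb2, where depth and the low counting of genes with several transcripts cannot be told apart.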
